A study of Mus musculus with 24 samples.

Results

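The genes described here are the variable (V) and constant (C) genes of the T cell receptor, the antigen receptor of T lymphocytes. They were taken as every gene that GENCODE M21 types as a T cell receptor V gene or C gene, which gave 152 of the 39056 genes in the count table, 144 V genes and 8 C genes. By chain, they were 98 Trav genes of the alpha chain, 10 Trav genes that the delta chain can also use, 22 Trbv genes (beta), 5 Trdv genes (delta), 7 gamma V genes (Tcrg-V1, Tcrg-V3 to Tcrg-V7 and Trgv2), 2 V genes without a chain name, and the constant genes Trac, Trbc1, Trbc2, Trdc and Tcrg-C1 to Tcrg-C4.

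A T cell carries either an alpha chain paired with a beta chain or a gamma chain paired with a delta chain, and each chain is made by joining 1 V gene to a J (joining) segment, with a D (diversity) segment in beta and delta chains, and splicing the product to a C gene. The receptor reaches the cell surface only together with the CD3 proteins, so Cd3e marks both kinds of T cell. The receptor chains that Trac and Trdc encode belong to 1 kind each, but a transcript alone does not show such a receptor. The epithelium of the small intestine holds many intraepithelial T cells, a large share of them gamma-delta cells that use Tcrg-V7, and the lamina propria beneath it holds mainly alpha-beta cells.

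Hematopoietic (CD45+) and other (CD45-) cells of the ileum were sorted from C57BL/6 mice aged 9.0 to 10.3 weeks, and their RNA was sequenced in 3 libraries for each of 4 genotypes and each fraction. Mice were either Hoil1+/+ or Hoil1-/-, and within each of these either Il4ra f/f or Il4ra ΔIEC. All carried floxed Il4ra, and ΔIEC mice also carried Cre under the villin promoter, which deletes Il4ra in intestinal epithelial cells. The Hoil1-/- allele is a hypomorph that still makes some of the amino-terminal part of HOIL1, a subunit of the linear ubiquitin chain assembly complex. Part of the epithelial fraction was mixed with the lamina propria cells before sorting, so intraepithelial and lamina propria T cells entered the CD45+ libraries together, in a mixture that the labels do not give per mouse. Nothing in the labels says which mice shared a litter or a day of sorting. In bulk RNA of this kind, fewer cells of a type and less RNA per cell cannot be told apart.

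The 12 CD45+ libraries held 14938629 to 76807504 counts, of which 12.1 to 43.97% fell on immunoglobulin genes. Rbck1, which encodes HOIL1, was at 79.5 to 137 CPM (the usual counts-per-million unit, on library sizes scaled by TMM) in the 6 Hoil1+/+ CD45+ libraries and at 4.72 to 13.9 CPM in the 6 Hoil1-/- ones, so no library went against its Hoil1 label. The sorted fraction fitted its label too, since Ptprc (CD45) was at 228 to 664 CPM in the CD45+ libraries and Epcam, an epithelial gene, at 6.15 to 60.1 CPM. The study left 2 of these libraries out of its own tests, replicate 1 of Hoil1-/- Il4ra f/f mice and replicate 3 of Hoil1-/- Il4ra ΔIEC mice. They are kept here, and results over the other 10 libraries are given where they differ.

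Several of these genes are near-copies of each other, which bears on how their reads can be assigned. Trbc1 (chr6:41538218-41539881) and Trbc2 (chr6:41546730-41548352) share 95.6% of 518 coding bases, and their longest identical run is 259 bases. Coding sequences from GENCODE M21 (build GRCm38) are printed 5′ to 3′ over the 60 bases where each set differs most, with capitals at every position that differs within the set. For the beta constant genes, 10 of 60 positions differed (both on the plus strand, chr6:41539273-41539332 and chr6:41547816-41547875).
Trbc1: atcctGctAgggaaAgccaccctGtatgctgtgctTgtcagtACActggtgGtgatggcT
Trbc2: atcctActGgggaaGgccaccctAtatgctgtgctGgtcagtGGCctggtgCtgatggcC

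Among the gamma constant genes, Tcrg-C1 and Tcrg-C2 shared 97.4% of their aligned coding bases and Tcrg-C1 and Tcrg-C3 96.8%, whereas Tcrg-C4 stood apart at 77.3% against Tcrg-C1. The last coding bases of Tcrg-C1 (chr13:19216556-19216615, plus strand), Tcrg-C2 (chr13:19305063-19305122, minus strand) and Tcrg-C4 (chr13:19352281-19352340, plus strand) are shown for this reason: 27 positions set Tcrg-C4 apart from Tcrg-C1 and 1 sets Tcrg-C2 apart.
Tcrg-C1: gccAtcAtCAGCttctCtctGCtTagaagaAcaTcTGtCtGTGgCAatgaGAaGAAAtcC
Tcrg-C2: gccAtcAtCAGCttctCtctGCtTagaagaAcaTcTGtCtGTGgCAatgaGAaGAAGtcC
Tcrg-C4: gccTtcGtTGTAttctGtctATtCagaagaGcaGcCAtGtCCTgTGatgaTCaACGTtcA

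Among the gamma V genes, Trgv2, Tcrg-V1 and Tcrg-V3 formed such a set, with 95.7% identity of Tcrg-V1 to each of the others. Over the 60 bases shown (Trgv2 chr13:19336789-19336848 on the minus strand, Tcrg-V1 chr13:19340182-19340241 and Tcrg-V3 chr13:19243026-19243085 on the plus strand), 6 positions varied.
Trgv2: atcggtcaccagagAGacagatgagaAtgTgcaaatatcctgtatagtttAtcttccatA
Tcrg-V1: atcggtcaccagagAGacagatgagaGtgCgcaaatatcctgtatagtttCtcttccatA
Tcrg-V3: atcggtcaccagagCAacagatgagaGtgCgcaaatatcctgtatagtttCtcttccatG

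The largest set of copies lies in the alpha locus on chromosome 14, where many Trav genes exist as an unlettered copy, a copy with the letter d and a copy with the letter n. There were 16 pairs of genes with exactly the same coding sequence, 32 genes in all. Trav12-1 (chr14:53538489-53538548), Trav12d-1 (chr14:52844792-52844851) and Trav12n-1 (chr14:53155839-53155898), all on the plus strand, show the pattern, with d and n copies identical and 9 of 60 bases different in the unlettered one.
Trav12-1: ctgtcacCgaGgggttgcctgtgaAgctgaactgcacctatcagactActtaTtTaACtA
Trav12d-1: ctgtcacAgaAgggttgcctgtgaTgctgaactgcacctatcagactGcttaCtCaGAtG
Trav12n-1: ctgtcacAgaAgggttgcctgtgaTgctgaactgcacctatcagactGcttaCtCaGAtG

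Trav12-1 had counts in 2 CD45+ libraries, and neither lettered copy had any. To describe this over all 152 genes, every window of 100 bases of a gene's transcripts was looked up in all other T cell receptor transcripts. Of 36 genes without a single window of their own, 2 had a count in any CD45+ library (5.56%), against 92 of the 99 genes with 50% or more of their windows unique (92.9%). All 22 Trbv genes were unique in every window and 21 had counts. Of the 46 unlettered Trav genes 41 had counts, against 13 of 34 d copies and 11 of 28 n copies. At 50% or more unique windows, 7 of 9 d copies and 7 of 7 n copies had counts. The windows were shorter than the sequenced read pairs, so a pair can separate genes that no single window does. A count of 0 for a gene without a window of its own gives no sure measure of its use. The part that the counting of reads with several matches had in this was not tested.

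**Figure D1:**
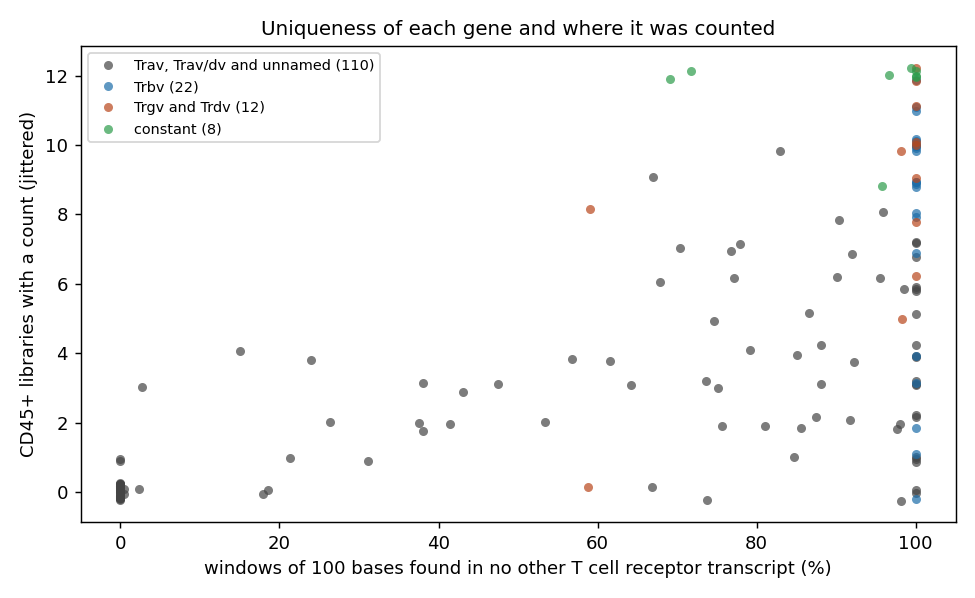
Each point is 1 of the 152 genes; the x axis gives the percentage of its windows of 100 bases that occur in no other T cell receptor transcript, and the y axis the number of CD45+ libraries, of 12, in which it had a count (with a small vertical jitter). Of 36 genes at 0% on the x axis, 2 had any count, while the beta V genes, all at 100%, were counted in up to 12 libraries.

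In all, 106 of the 152 genes had a count in at least 1 CD45+ library and 46 had none. All 8 constant genes and all 7 gamma V genes had counts, as did 4 of 5 Trdv genes, 21 of 22 Trbv genes, 8 of 10 Trav genes shared with the delta chain and 57 of 98 other Trav genes. The genes together took 0.0128 to 0.217% of a CD45+ library's counts. Counts came in clumps: of 1728 pairs of a V gene and a library, 534 (30.9%) had a count, and only 34 of these 534 were between 1 and 9 counts, with a median of 56.5. The libraries were amplified by PCR and carried no molecular identifiers, so a V gene at 50 counts need not stand for 50 molecules, and the intervals below cover counting error only.

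The sort separated these genes. In the 12 CD45- libraries they drew 1076 counts in all, against 477729 in the 12 CD45+ libraries. Of the 1076 counts, 826 were on Trac, which had counts in 11 of the 12 CD45- libraries (0 to 6.35 CPM of the unscaled total), and on a fit over all 24 libraries Trac was 5.27 ± 0.49 (SE) log2 units higher in CD45+ cells (edgeR quasi-likelihood test, adjusted p = 4.97e-08). Of 75 genes tested in that fit, 54 were higher in CD45+ cells and 0 were lower, where 24.5% of all 17903 genes tested were higher. Genes without a CD45- count passed the count filter through CD45+ libraries alone and could not come out lower. The number of genes called is therefore no separate support for the sort. A total of 94 genes had counts in CD45+ libraries and none in CD45- libraries. Trgv2 was the most abundant of these, 2950-fold above a floor of 3 counts over the 12 CD45- libraries (0.0129 CPM). Replicate 2 of Hoil1+/+ Il4ra f/f alone held 9214 of the counts on Trgv2, and without this library the figure was 1900-fold. The floor takes counts as coming singly. Since they came in clumps, a count of 0 can allow a higher level, and these folds are not lower bounds.

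Within CD45+ cells, levels of the alpha-beta constant genes varied widely between mice of 1 genotype. Trac (chr14:54220521-54224206) encodes the constant region of the alpha chain. It had levels of 49.1, 168 and 27.4 CPM (Il4ra f/f) and 248, 209 and 60.2 CPM (Il4ra ΔIEC) in Hoil1+/+ libraries, and 29.5, 124 and 86.0 CPM (Il4ra f/f) and 111, 94.7 and 59.6 CPM (Il4ra ΔIEC) in Hoil1-/- libraries. The highest 3 were replicates 1 and 2 of Hoil1+/+ Il4ra ΔIEC and replicate 2 of Hoil1+/+ Il4ra f/f, the other 3 Hoil1+/+ libraries were below the Hoil1-/- median of 90.4 CPM, and the genotypes overlapped. The mean was 127 ± 93.4 CPM in Hoil1+/+ and 84.2 ± 34.7 CPM in Hoil1-/- (SD, n = 6 each).

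Trbc1 and Trbc2, the alternative constant regions of the beta chain, were highest in replicates 1 and 2 of Hoil1+/+ Il4ra ΔIEC, and next in replicate 2 of Hoil1-/- Il4ra f/f. Trbc2 was at 91.3, 153 and 25.3 CPM (Il4ra f/f) and 252, 180 and 67.3 CPM (Il4ra ΔIEC) in Hoil1+/+ libraries, and 48.7, 155 and 78.3 CPM (Il4ra f/f) and 76.4, 89.7 and 38.5 CPM (Il4ra ΔIEC) in Hoil1-/- libraries. Trbc1 ranged from 16.6 to 79.5 CPM in Hoil1+/+ and from 16.3 to 64.7 CPM in Hoil1-/-, and took 21.3 to 39.6% of the counts of the 2 beta constant genes in every library. Read pairs that lie wholly within the identical stretches of these genes cannot be placed, so that share is uncertain.

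Trdc (chr14:54142851-54148868), the constant region of the delta chain, covered a wider range than Trac. It was at 45.5, 315 and 25.2 CPM (Il4ra f/f) and 251, 202 and 24.1 CPM (Il4ra ΔIEC) in Hoil1+/+ libraries, and 36.6, 94.1 and 110 CPM (Il4ra f/f) and 43.3, 39.3 and 30.5 CPM (Il4ra ΔIEC) in Hoil1-/- libraries. The same 3 Hoil1+/+ libraries stood at 202 CPM or more and every other library at 110 CPM or less. The 6 Hoil1-/- values lay between the 2 clusters of Hoil1+/+ values or beside the lower one, and the groups overlapped.

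Tcrg-C1, Tcrg-C2 and Tcrg-C4 were highest in the same 3 libraries as Trdc. Tcrg-C1 had a median of 129 CPM in Hoil1+/+ (26.0 to 241) and 68.3 CPM in Hoil1-/- (16.1 to 117), Tcrg-C2 of 94.3 CPM (16.3 to 266) and 42.4 CPM (32.5 to 79.8), and Tcrg-C4 of 61.3 CPM (10.1 to 134) and 40.9 CPM (18.4 to 65.6). Tcrg-C3 was at 0 to 5.40 CPM and had counts in 9 of 12 libraries. Among the 4 gamma constant genes, Tcrg-C1 took 20.2 to 54.0% of counts, Tcrg-C2 24.6 to 42.9%, Tcrg-C4 15.3 to 38.0% and Tcrg-C3 at most 2.33%. Per kilobase of annotated exon, mean levels over the 12 libraries were 151 CPM per kb for Trbc2, 113 for Trac, 109 for Tcrg-C1, 93.0 for Tcrg-C2, 56.2 for Tcrg-C4, 55.3 for Trbc1, 26.2 for Trdc and 3.28 for Tcrg-C3. The value for Trdc rests on an annotated length of 3865 bases, most of it outside its 458 coding bases.

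**Figure D2:**
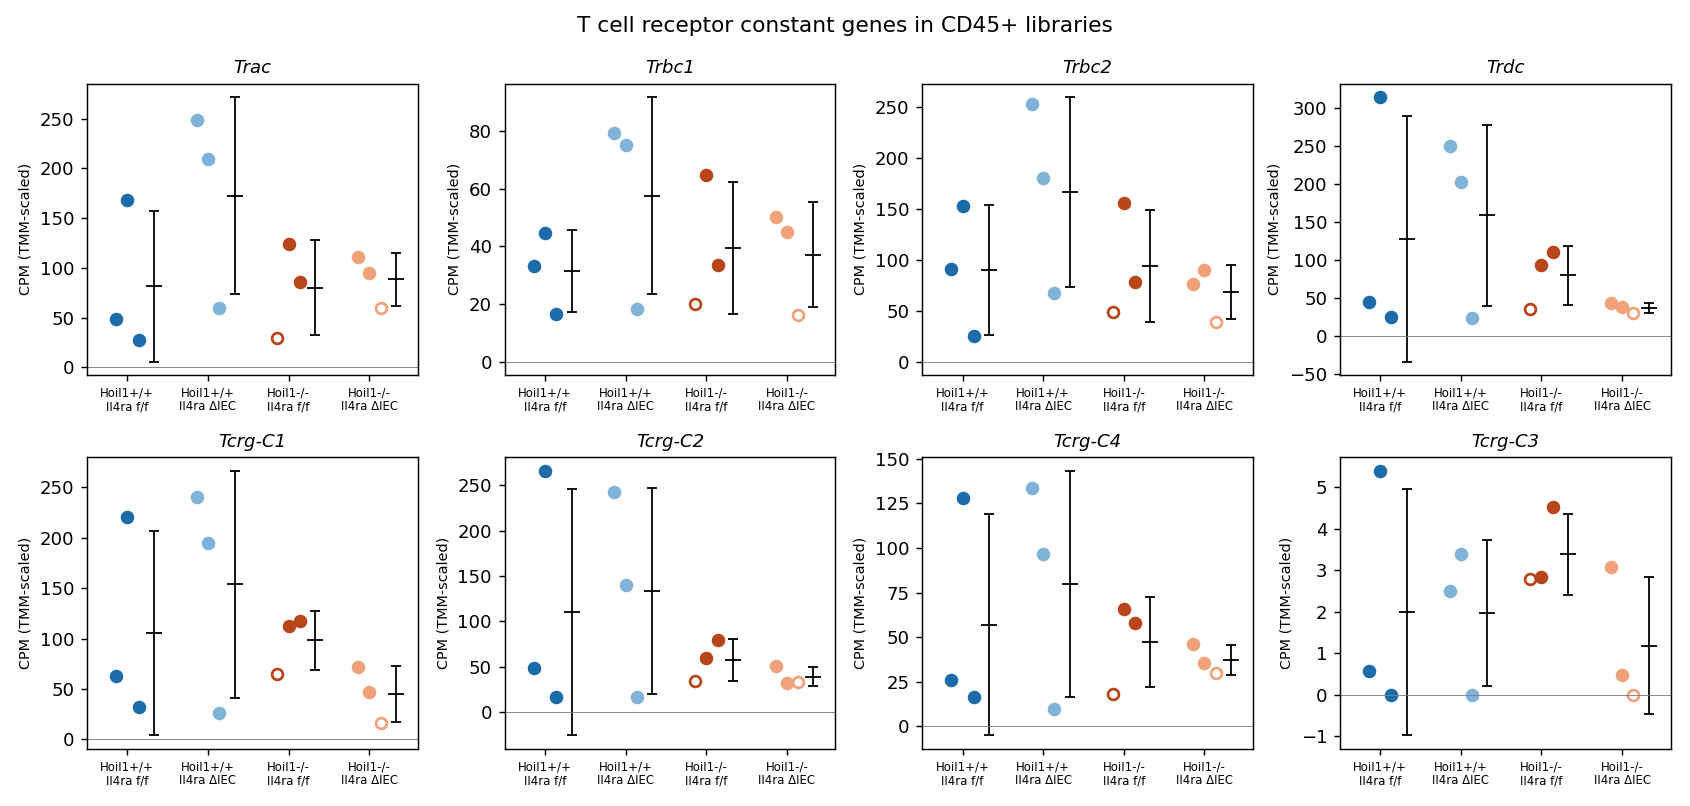
Levels of the 8 constant genes (y axis, TMM-scaled CPM on a linear scale with its own range per gene) in the 3 CD45+ libraries of each genotype (x axis); points are libraries, open points the 2 that the study left out, and bars the mean ± SD of 3. In Trac, Trdc and the gamma genes other than Tcrg-C3, the same 3 Hoil1+/+ libraries lie at the top, with Trdc at 202 to 315 CPM, and the others of that genotype lie within the Hoil1-/- values or below them.

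The Hoil1 comparison asks whether loss of HOIL1 changes the T cell receptor genes of the ileal immune compartment. No gene of the 79 tested passed in edgeR's quasi-likelihood test (12 libraries, 1 mean per genotype, effect of Hoil1 averaged over both Il4ra genotypes), where 0.0125% of all 16060 genes were called. At an unadjusted p under 0.05 there were 4 of the 79, where 665 of all 16060 genes were. DESeq2 and edgeR's likelihood ratio test also called 0, and the fit over the study's 10 libraries called 0. Fitted log2 differences, Hoil1-/- minus Hoil1+/+, were -1.38 ± 0.65 (SE) for Trdc, -1.36 ± 0.67 for Tcrg-C2, -0.94 ± 0.58 for Tcrg-C1 and -0.68 ± 0.62 for Tcrg-C4. Those for the alpha-beta genes were -0.50 ± 0.50 for Trac, -0.61 ± 0.46 for Trbc2 and -0.15 ± 0.44 for Trbc1, all with an adjusted p of 1.00. The difference for Trbc1 was 0.17 with the study's 10 libraries and 0.02 without replicate 3 of Hoil1-/- Il4ra ΔIEC. Without replicate 2 of Hoil1+/+ Il4ra f/f, the library highest in Trdc, the difference was -0.45 for Trdc, -0.36 for Tcrg-C1 and -0.47 for Tcrg-C2, and changed sign for Trac, Trbc1 and Tcrg-C4, to 0.05, 0.01 and 0.03. Tcrg-C3, at 0.02 ± 1.52, changed sign when any 1 of 5 libraries was left out.

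Described over all 106 genes with counts, mean CPM was lower in Hoil1-/- for 81 (76.4%) and higher for 25, where over all 20994 genes with counts it was lower for 51.4%. The median log2 ratio of means was -1.0 for these genes and 0.02 for all genes, with a group at 0 set to 3 counts over its 6 libraries. Over the 79 genes tested, the median fitted difference was -1.17, and it was -0.25 without replicate 2 of Hoil1+/+ Il4ra f/f (88 genes tested). These genes share the same few high libraries and are not independent of each other. For 0 of the 106 did the Hoil1-/- and Hoil1+/+ libraries not overlap, where 0.2% of all genes with counts did not. Of the markers of intraepithelial T cells, 8 of 8 had a fitted Hoil1 difference below 0 (0 passed), and their summed level was 383 to 9628 CPM in Hoil1+/+ and 949 to 3143 CPM in Hoil1-/-, with the 3 libraries highest in Trdc at 4513, 7012 and 9628 CPM. Of the 8 epithelial markers 7 were below 0 as well (median -0.93, 0 passed), with a summed level of 47.03 to 334 CPM in Hoil1+/+ and 38.6 to 273 CPM in Hoil1-/-. Of the lists for 10 other cell types, 0 of their genes passed in either direction apart from 1 of 10 for group 2 innate lymphoid cells, Klrg1 (named after its value was seen), which was higher in Hoil1-/- (2.80 on the log2 scale, adjusted p = 0.0481, edgeR). Of 7 other alternative fits Klrg1 passed in 6, and it did not pass with the study's 10 libraries (adjusted p = 0.0968, edgeR). It passed in 1 of the 12 fits that left out a library, the one without replicate 3 of Hoil1-/- Il4ra f/f (adjusted p 0.019, against up to 0.348 in the others). The log2 difference was 2.47 to 3.02 over all these fits. In the list of group 2 innate lymphoid cells, 10 of 10 genes had a fitted difference above 0 (median 2.42). Their summed level was 48.7 to 153 CPM in Hoil1+/+ and 127 to 707 CPM in Hoil1-/-. Endothelium and stroma had 6 of 6 genes above 0 (median 1.29), and mast cells and eosinophils 5 of 5 (median 0.69). Both directions occurred for B cells (5 of 7 above 0), macrophages and dendritic cells (5 of 8) and group 3 innate lymphoid cells (3 of 6). The same held for natural killer cells and group 1 innate lymphoid cells (2 of 5), alpha-beta T cells (1 of 7) and plasma cells (1 of 6). The part of these cells in the differences above was not tested.

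The Il4ra comparison and the interaction of both genotypes called 0 of the 79 genes as well, where 0% of 16060 genes were called in either. At an unadjusted p under 0.05 there were 2 of the 79 genes for Il4ra, where 882 of all 16060 genes were. For the interaction there were 10 of the 79, where 703 of all 16060 genes were. The 79 genes are not independent of each other. The likelihood ratio test called 0 of them in both. DESeq2 called 0 for the interaction and 1 for Il4ra, Trav10n, a lettered copy in the alpha locus. It had counts in 3 Il4ra f/f libraries (3.47, 0.74 and 1.39 CPM) and 1 ΔIEC library (0.82 CPM). Since no gene passed, the 3 with the smallest unadjusted p are given as levels. For Hoil1 they were Trav13n-1 (counts in 3 Hoil1+/+ libraries, 0.27 to 0.60 CPM), Trav13-1 (4 Hoil1+/+ libraries at 1.25 to 2.37 CPM and 2 Hoil1-/- ones at 0.46 and 0.71 CPM) and Trdv1 (4 Hoil1+/+ libraries at 0.21 to 8.89 CPM and 2 Hoil1-/- ones at 0.68 and 1.06 CPM). For Il4ra they were Trav7-4, which had counts in 4 ΔIEC libraries (0.31 to 1.16 CPM), Trav13d-1, which had counts in 3 Il4ra f/f libraries (0.47 to 0.80 CPM), and Trbv30, which had counts in 3 f/f libraries (0.80 to 2.38 CPM) and 1 ΔIEC library (0.56 CPM). For the interaction they were Trav13n-4, Trav14-1 and Trav6-7-dv9, each with counts in 3 to 5 libraries. Such genes are at 0 in most mice, and a fitted ratio for them depends on the value set in place of 0.

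The balance of gamma-delta against alpha-beta usage was then read within each library. The 5 gamma-delta constant genes took 51.3, 71.9 and 56.6% of all constant-gene counts in Hoil1+/+ Il4ra f/f, 60, 57.9 and 34.5% in Hoil1+/+ Il4ra ΔIEC, 61.4, 49.3 and 65.1% in Hoil1-/- Il4ra f/f and 47.6, 40.3 and 49.0% in Hoil1-/- Il4ra ΔIEC. The 95% Wilson interval was 71.7 to 72.2% at the highest and 33.8 to 35.3% at the lowest. It treats every count as independent. With amplified counts that came in clumps, it is too narrow as a measure of how well each share is known. The percentages are shares of counts and not of cells, since the genes differ in length and in RNA per cell. Which cells made these transcripts was not tested.

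For single genes, the ratio of Trdc to Trac counts was 0.926, 1.88 and 0.920 (Il4ra f/f) and 1.01, 0.967 and 0.401 (Il4ra ΔIEC) in Hoil1+/+ libraries, and 1.24, 0.757 and 1.28 (Il4ra f/f) and 0.390, 0.415 and 0.511 (Il4ra ΔIEC) in Hoil1-/- libraries. All 3 Hoil1-/- Il4ra ΔIEC libraries and 1 of the Hoil1+/+ Il4ra ΔIEC libraries lay below every f/f library, and the other 2 did not. On the log2 scale (0.5 counts added to each gene), the ratio was -0.82 ± 0.64 in ΔIEC and 0.16 ± 0.47 in f/f libraries (SD, n = 6 each), a difference of -0.98 (two-sided exact permutation test, p = 0.026, adjusted p = 0.123 over 6 ratio tests, smallest possible p = 0.00216). The difference was -0.68 within Hoil1+/+ and -1.29 within Hoil1-/-. It thus did not pass after adjustment, and over the study's 10 libraries it was -0.92 (exact permutation p = 0.0873). By Hoil1, the ratio was -0.55 ± 0.77 in Hoil1-/- and -0.11 ± 0.71 in Hoil1+/+, a difference of -0.44 (exact permutation p = 0.327, adjusted p = 0.392).

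Cd3e, a subunit of the CD3 complex present in both kinds of T cell, gave the other reference. The ratio of Trdc to Cd3e was 0.219 to 0.412 across the 12 libraries, while Trdc itself ranged from 24.1 to 315 CPM. The ratio of Trac to Cd3e ranged more widely, from 0.191 to 0.730, and was lowest in Hoil1+/+ Il4ra f/f replicate 2, the library highest in Trdc. By Il4ra, ΔIEC minus f/f, the log2 difference was 0.70 for Trac to Cd3e (exact permutation p = 0.0411, adjusted p = 0.123) and -0.28 for Trdc to Cd3e (exact permutation p = 0.0931, adjusted p = 0.186). Over the study's 10 libraries the last was -0.44 (exact permutation p = 0.0238), and its adjusted p was 0.143 to 0.364 over all alternatives. By Hoil1 it was 0.25 (exact permutation p = 0.498, adjusted p = 0.498) and -0.19 (exact permutation p = 0.273, adjusted p = 0.392), and the groups overlapped in all 6 comparisons.

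**Figure D3:**
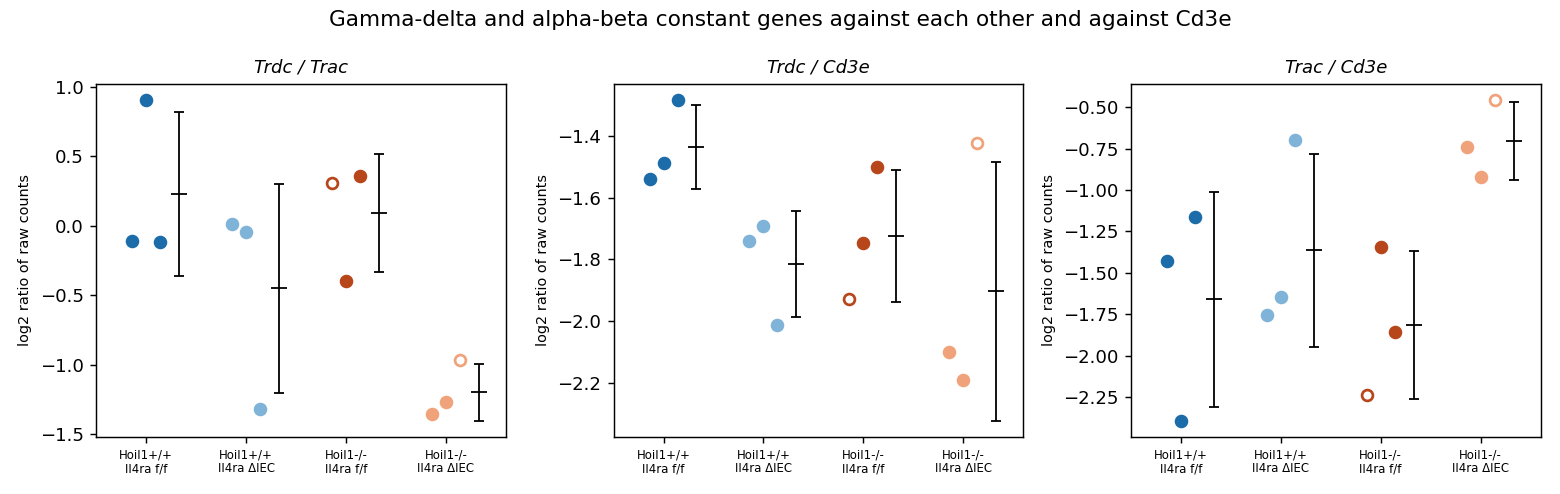
Log2 ratios of raw counts (y axis) of Trdc to Trac, Trdc to Cd3e and Trac to Cd3e in the 3 CD45+ libraries of each genotype (x axis); points are libraries, open points the 2 that the study left out, bars the mean ± SD of 3. In the first panel the Hoil1-/- Il4ra ΔIEC libraries lie lowest, at ratios of 0.390 to 0.511 before taking logs, and 1 Hoil1+/+ Il4ra ΔIEC library lies with them at 0.401.

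The gamma V genes were led by Trgv2 and Tcrg-V7. Per kilobase of exon their mean levels were 59.4 CPM per kb for Trgv2, 42.7 for Tcrg-V7, 23.04 for Tcrg-V4, 21.6 for Tcrg-V1, 2.95 for Tcrg-V3, 2.54 for Tcrg-V6 and 1.52 for Tcrg-V5. Trgv2 and Tcrg-C2 are the ones of these on the minus strand, Tcrg-V1 lies ahead of Tcrg-C4 on the plus strand, and Tcrg-V7 and Tcrg-V4 lie ahead of Tcrg-C1. The 48 last coding bases of the 4 leading gamma genes and of 2 delta V genes are printed with the last in-frame TGT codon in capitals, a cysteine codon that ends the conserved part of the V region, ahead of the joining region (chr13:19178445-19178492 plus, chr13:19336573-19336620 minus, chr13:19185459-19185506 plus, chr13:19340407-19340454 plus, chr14:54075468-54075515 plus and chr14:54148662-54148709 minus, in the order printed).
Tcrg-V7: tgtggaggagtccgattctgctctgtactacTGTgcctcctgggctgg
Trgv2: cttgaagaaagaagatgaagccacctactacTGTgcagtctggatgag
Tcrg-V4: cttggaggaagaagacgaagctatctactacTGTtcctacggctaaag
Tcrg-V1: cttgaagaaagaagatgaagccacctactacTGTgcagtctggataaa
Trdv4: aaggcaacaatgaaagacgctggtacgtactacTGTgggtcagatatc
Trdv5: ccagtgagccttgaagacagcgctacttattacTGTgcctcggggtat

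Tcrg-V7, the V gene typical of gamma-delta cells in gut epithelium, was at 5.43, 44.5 and 1.28 CPM (Il4ra f/f) and 44.8, 41.9 and 2.16 CPM (Il4ra ΔIEC) in Hoil1+/+ libraries, and 3.25, 14.5 and 17.6 CPM (Il4ra f/f) and 6.31, 3.49 and 3.37 CPM (Il4ra ΔIEC) in Hoil1-/- libraries. It was high in the same 3 Hoil1+/+ libraries as Trdc, and the genotypes overlapped (log2 difference -1.64 ± 0.84 (SE), adjusted p = 1.00, edgeR). Trgv2 was at 3.83 to 105 CPM in Hoil1+/+ and at 9.98 to 18.7 CPM in Hoil1-/- (log2 difference -1.48 ± 0.69, adjusted p = 1.00, edgeR). Without replicate 2 of Hoil1+/+ Il4ra f/f the differences were -0.47 for Tcrg-V7 and -0.51 for Trgv2. As a share of gamma V counts, Tcrg-V7 held 11.7 to 32.2% and Trgv2 27.4 to 82.8%, the last in the study's left-out Hoil1-/- Il4ra ΔIEC library, where Trgv2 and Tcrg-V7 were the only gamma V genes with counts. Tcrg-V4 and Tcrg-V1 had counts in 10 libraries each. Despite their likeness, Trgv2, Tcrg-V1 and Tcrg-V3 had 100, 98.2 and 98.3% of their windows of 100 bases to themselves. Few exact matches of that length are thus shared between these 3 genes.

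The delta V genes were lower. Trdv5 was at 0 to 13.3 CPM with counts in 9 libraries, Trdv4 at 0 to 8.99 CPM in 11, Trdv2-2 at 0 to 7.14 CPM in 8 and Trdv1 at 0 to 8.89 CPM in 6, and Trdv2-1 had no count. All 4 had a lower mean in Hoil1-/- and 0 passed. Trdv5 lies on the minus strand and overlaps in part the span of Trdc, which is on the plus strand. With the strand setting of the counting not stated, reads from the overlap may not be separable.

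The beta V genes were spread widely. By mean CPM per kb the first 6 were Trbv13-2 at 13.3, Trbv13-3 at 11.4, Trbv15 at 9.38, Trbv13-1 at 9.21, Trbv16 at 8.38 and Trbv1 at 7.35. Trbv3 was the only one with counts in all 12 libraries (1.16 to 5.80 CPM). The leading beta V gene differed between libraries, 8 different genes leading in the 12 libraries, and held 12.9 to 34.5% of beta V counts. Its share was highest in Hoil1-/- Il4ra ΔIEC replicate 3 (Trbv13-3, of 504 counts) and lowest in Hoil1+/+ Il4ra f/f replicate 2 (Trbv16, of 6019 counts).

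Alpha V genes were the sparsest. By mean CPM per kb, the highest of the 98 Trav genes not shared with the delta chain were Trav16 at 5.49, Trav16n at 3.83, Trav7-5 at 2.34, Trav19 at 2.18, Trav13-1 at 2.13 and Trav14-2 at 2.11, with counts in 6 to 10 libraries each. Of the 10 shared with the delta chain, Trav13-4-dv7 was at 7.96, Trav15-2-dv6-2 at 6.30 and Trav15-1-dv6-1 at 2.41 CPM per kb. Trav16 and Trav16n are near-copies with 98.6% identity, and 82.9 and 67.0% of their windows were unique, so their split is uncertain in part. Trav1, used by mucosal-associated invariant T cells and unique in 100% of its windows, had counts in 1 library (0.53 CPM). Trav11, used by invariant natural killer T cells, had no count and its near-copy Trav11d had counts in 1 library (0.50 CPM). These last 2 had 0.41 and 0% of their windows to themselves, so their values give no sure level of either gene. In a single CD45+ library, 3 counts correspond to 0.0341 to 0.163 CPM. The 2 libraries that the study left out had no count on any of the 98 Trav genes, at 29.5 and 59.6 CPM of Trac.

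The number of V genes with a count per library was 34, 69 and 20 (Il4ra f/f) and 70, 72 and 48 (Il4ra ΔIEC) in Hoil1+/+ libraries, and 11, 66 and 48 (Il4ra f/f) and 43, 43 and 10 (Il4ra ΔIEC) in Hoil1-/- libraries. The 3 libraries highest in Trdc and Trac were among the 4 with most V genes, and the 2 left-out libraries had the fewest. Counts on V genes ranged from 1075 to 32393 per library, and these numbers were not brought to 1 depth, so they are no measure of diversity.

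**Figure D4:**
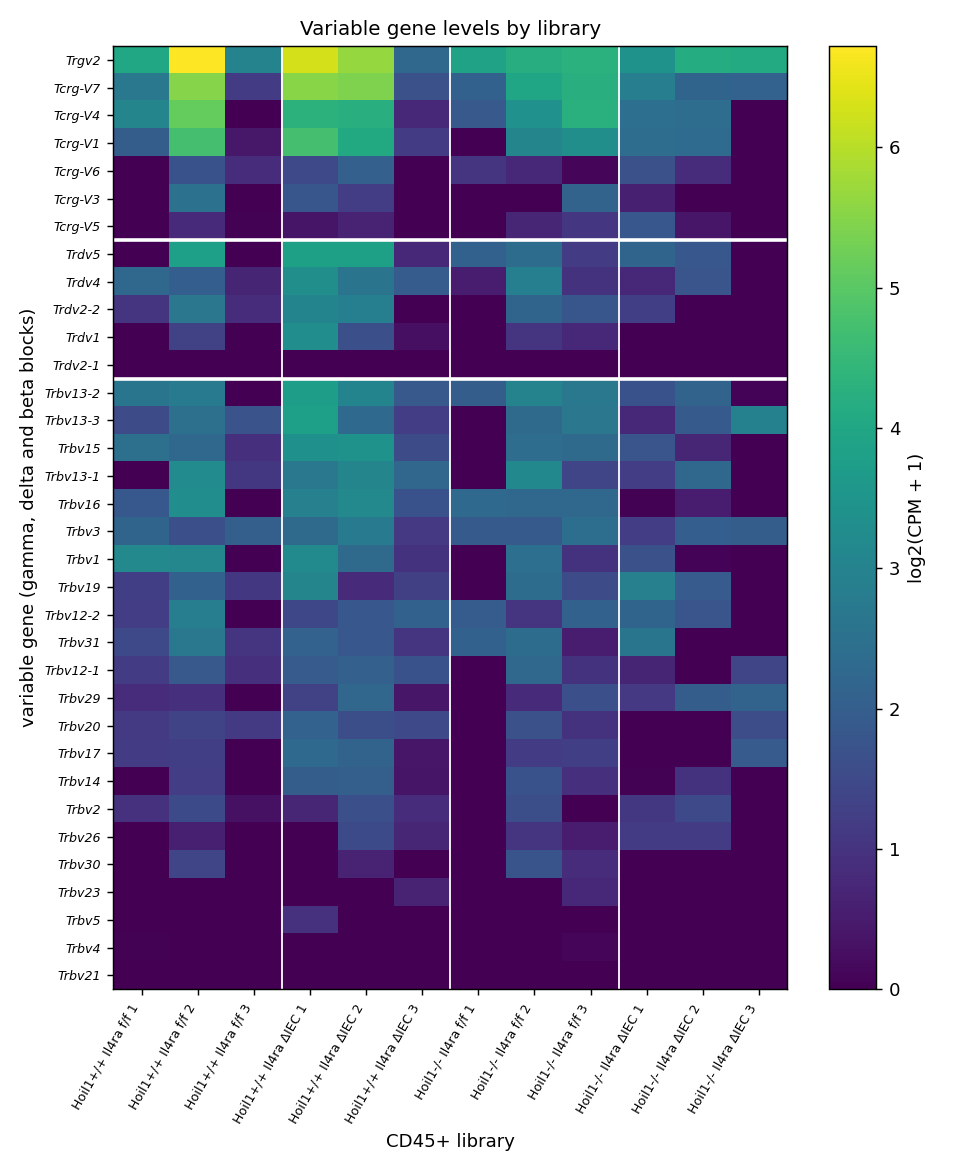
Levels of the gamma (top), delta (middle) and beta (bottom) V genes as log2(CPM + 1) (colour) in the 12 CD45+ libraries (columns, grouped by genotype). Trgv2 and Tcrg-V7 are the gamma V genes with counts in every library, as is Trbv3 in the beta block, and the columns of the left-out libraries are mostly at 0.

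The genes that work with the receptor were read as a list of 27 genes for the CD3 complex, coreceptors and signaling. In the Hoil1 comparison 24 were tested, 0 passed in either direction, and 19 of 24 had a fitted difference below 0 (median -0.46, against -0.02 over all genes). Cd3e was at 61.2 to 881 CPM in Hoil1+/+ and at 81.7 to 316 CPM in Hoil1-/- (log2 difference -1.16 ± 0.65 (SE), adjusted p = 1.00, edgeR). Cd8a, the coreceptor chain of most intraepithelial T cells, was at 38.3 to 583 CPM and 46.1 to 207 CPM (-1.41 ± 0.64, adjusted p = 1.00, edgeR). Without replicate 2 of Hoil1+/+ Il4ra f/f these differences were -0.21 for Cd3e and -0.55 for Cd8a. Cd4, carried by helper T cells and also by some myeloid cells, was at 154 to 235 CPM and 131 to 293 CPM (0.06 ± 0.19, adjusted p = 1.00, edgeR). Rag1 and Rag2, which cut the V, D and J segments in developing lymphocytes, had no count in any CD45+ library, and Ptcra, the surrogate alpha chain, had too few to be tested.

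The libraries high and low in T cell receptor genes differed in the age of the mice, which the labels give. In each of the 4 genotypes the youngest mouse had the lowest summed level of these genes: 188 CPM at 9.0 weeks against 446 and 1668 CPM in Hoil1+/+ Il4ra f/f, 275 CPM at 9.0 weeks against 1406 and 1807 CPM in Hoil1+/+ Il4ra ΔIEC, 295 CPM at 9.0 weeks against 697 and 842 CPM in Hoil1-/- Il4ra f/f, and 268 CPM at 9.1 weeks against 466 and 536 CPM in Hoil1-/- Il4ra ΔIEC. The 5 libraries from mice of 9.0 or 9.1 weeks had 27.4 to 60.2 CPM of Trac, and the 7 from mice of 9.4 to 9.9 weeks had 86.0 to 248 CPM, without overlap. For Trdc the ranges were 24.1 to 45.5 CPM and 39.3 to 315 CPM, and overlapped. The youngest mice of the Hoil1-/- genotypes gave the 2 CD45+ libraries that the study left out. Among the study's 10 libraries no Hoil1-/- mouse was under 9.4 weeks, so only the Hoil1+/+ genotypes held both younger and older mice.

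After these values were seen, age was added as a term to the fit over the 12 libraries. In edgeR's quasi-likelihood test 7 of the 79 genes rose with age and 0 fell, where 0.635% of 16060 genes rose. They were Trac (2.41 ± 0.28 log2 units per week (SE), adjusted p = 0.00735), Trbc1 (2.03 ± 0.36, adjusted p = 0.0397), Trbc2 (2.03 ± 0.38, adjusted p = 0.0408), Trdc (3.0 ± 0.57, adjusted p = 0.0454), Tcrg-C1 (2.72 ± 0.52, adjusted p = 0.0454), Tcrg-C4 (2.90 ± 0.53, adjusted p = 0.0408) and Trav13-4-dv7 (adjusted p = 0.0339), an alpha V gene also open to the delta chain that was at 0 in all 5 younger mice and at 1.96 to 13.8 CPM in all 7 older ones. Trav13-4-dv7 passed the count filter through the older mice alone and could not come out as falling, so its call is no separate support. The same limit holds for any other V gene without a count in the younger mice. Of the list of 27 genes, 9 rose and 0 fell, among them Cd3e, Cd3d, Cd247, Lck, Zap70, Lat, Cd6 and Bcl11b.

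The count rested on single libraries. Without replicate 2 of Hoil1+/+ Il4ra f/f, 23 of the 88 T cell receptor genes tested were at an unadjusted p under 0.05. Of all 16682 genes tested, 1685 were. The count called in that fit was 0 of the T cell receptor genes and 0 of all genes. It was 1 without replicate 3 of Hoil1+/+ Il4ra f/f, any 1 of the Hoil1+/+ Il4ra ΔIEC libraries, or replicate 1 or 2 of Hoil1-/- Il4ra ΔIEC. It was 2 without replicate 1 of Hoil1-/- Il4ra f/f, and 3 without replicate 1 of Hoil1+/+ Il4ra f/f or replicate 3 of Hoil1-/- Il4ra ΔIEC. Trac passed in 11 of the 12 fits that left out a library. The ages span 0.9 weeks, and age cannot be told apart here from litter or day of sorting. Xist, which is transcribed in cells with more than 1 X chromosome, was under 100 counts in 4 of the 5 younger and 3 of the 7 older libraries. Among libraries under 100 counts of Xist the summed T cell receptor level was 188 to 446 CPM in the younger and 536 to 1668 CPM in the older mice, and in the others it was 295 CPM in 1 younger mouse and 466 to 1807 CPM in 4 older ones. Of the marker lists, 3 held genes that rose with age: alpha-beta T cells (3 of 7, Cd3e, Cd3d and Cd6, which the list of 27 also holds), intraepithelial T cells (1 of 8, Cd160) and group 3 innate lymphoid cells (1 of 6, Kit, 1.70 ± 0.27 log2 units per week (SE), adjusted p = 0.0243, edgeR). Fitted age terms were above 0 for 6 of 7, 8 of 8 and 6 of 6 genes of these lists. In the other 8 lists 0 passed, and terms above 0 were 5 of 7 for B cells, 1 of 6 for plasma cells, 9 of 10 for group 2 innate lymphoid cells, 4 of 5 for natural killer cells and group 1 innate lymphoid cells, 0 of 8 for macrophages and dendritic cells, 0 of 5 for mast cells and eosinophils, 7 of 8 for epithelium and 2 of 6 for endothelium and stroma. The part of these cells in the age term was not tested. With age in the fit, the Hoil1 comparison still called 0 of the 79 genes. At an unadjusted p under 0.05 there were 7 of the 79, where 863 of all 16060 genes were.

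**Figure D5:**
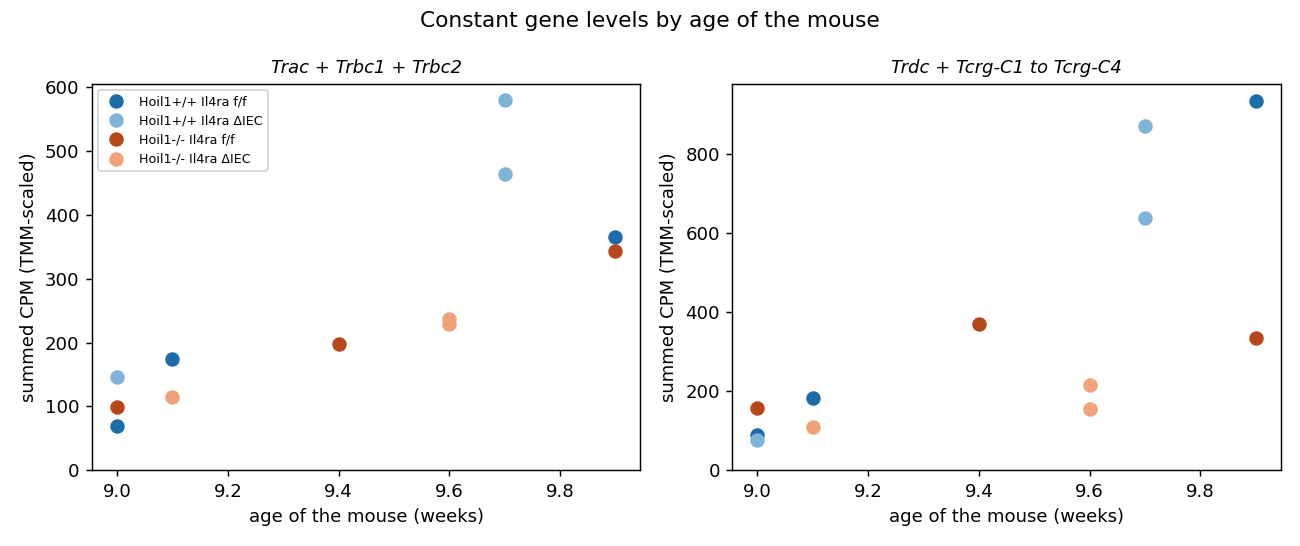
Summed TMM-scaled CPM of the alpha-beta constant genes (left) and gamma-delta constant genes (right) against the age of the mouse in weeks, 1 point per CD45+ library, coloured by genotype. The 5 libraries at 9.0 and 9.1 weeks lie at 69.2 to 174 CPM on the left and 76.9 to 183 CPM on the right. The 7 older ones lie at 198 to 580 CPM on the left, without overlap, and at 155 to 936 CPM on the right, with overlap.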

How the data were processed

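Poly-A-selected RNA from CD45+ and CD45- cells of the ileum was sequenced in 24 libraries. Raw counts of 39056 genes were deposited, which the authors had made with cutadapt (trimming), STAR (alignment, mm10) and featureCounts (ENSEMBL genes); strand and multiple-match options are not given in the sources used here. Counts are not normalized. Gene IDs were matched to GENCODE M21 (GRCm38, the assembly of mm10), 34299 by exact version and 38872 in all. The genes and lists, and the rule for the genes named (all constant, gamma and delta V genes, the highest beta and alpha V genes, genes past the threshold or with the smallest p, and the list of 27), were chosen with earlier results of these data known; the age term was added after its values were seen. The marker lists of 11 cell types came from general knowledge. The values of 1 gene of the list of 27 are not reported here.

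Contrasts were fitted with edgeR 4.0.16 in R 4.3.3 (quasi-likelihood test, TMM, filterByExpr with minimum count 10 and minimum total 15, Benjamini-Hochberg adjustment, threshold 0.05) over all 12 CD45+ libraries, where the study used 10, or over all 24. CPM are counts over the TMM-scaled library size. Labels do not tie the CD45+ and CD45- libraries of a mouse, and each p measures the spread between these libraries. Ratios used scipy 1.17.1. Alternatives were the study's libraries, RLE, no filter, DESeq2 1.42.0, the likelihood ratio test, removal of immunoglobulin genes, other pseudocounts, age as a term and leaving out each library. On simulated counts with 200 genes changed 8-fold, the Hoil1 fit recovered 100% and the interaction fit 71.5%. The changed genes were drawn from those averaging over 200 counts, and every gene was given the same dispersion. These rates therefore do not give the power for sparser or more variable genes, such as most T cell receptor genes here.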

Additional observations from a re-analysis of the deposited data

Results flagged for a closer look

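The spread of 29 quantities (the constant, gamma V and delta V genes, Cd3e, Cd8a, Cd4, and the totals, shares and ratios given per library) was looked at in the 6 Hoil1+/+ and the 6 Hoil1-/- CD45+ libraries, 58 groups in all. In 3 of them the highest library lay far from the others by Dixon's 95% criterion, where chance gives about 1 in 20. Trdv1 was at 8.89 CPM in replicate 1 of Hoil1+/+ Il4ra ΔIEC and at 2.12 CPM or less in the other Hoil1+/+ libraries. Trdv4 was at 6.44 CPM in replicate 2 of Hoil1-/- Il4ra f/f, against at most 2.40 CPM, and Tcrg-V3 at 3.41 CPM in replicate 3 of Hoil1-/- Il4ra f/f, against at most 0.50 CPM.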

How the results depend on the processing

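Of the T cell receptor genes, 0 passed for Hoil1 and for the interaction under every alternative run, and for Il4ra 1 passed with DESeq2 and 0 otherwise; for CD45+ against CD45- cells 43 to 54 passed, and 39 to 54 when a library was left out. Over all genes, DESeq2 called 102 for Hoil1, 99 for Il4ra and 89 for the interaction, the likelihood ratio test 33, 21 and 25, and the study's libraries 1 for Hoil1 and 1 for Il4ra, against 2, 0 and 0; leaving out a library gave 1 to 4 for Hoil1 and 0 to 1 for Il4ra. The age term was less stable: of the T cell receptor genes it called 29 with DESeq2, 15 with the likelihood ratio test and 3 with the study's libraries, and 0 to 6 when a library was left out, and of all genes 1329 with DESeq2, 592 with the likelihood ratio test, 198 without immunoglobulin genes and 0 to 153 when a library was left out, against 7 and 123. The causes were not tested.

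Among the constant genes, the Hoil1 difference of Trbc1 turned to 0.17 with the study's libraries. Leaving out a library gave -0.43 to 0.02 for Trbc1, -0.73 to 0.05 for Trac, -0.95 to 0.03 for Tcrg-C4 and -1.13 to 1.41 for Tcrg-C3, and kept Trdc at -1.64 to -0.45. The ratio of Trdc to Trac by Il4ra stayed at -1.15 to -0.83 when a library was left out and 0 of the 6 ratio tests passed after adjustment under any alternative. No paired analysis was possible because the labels tie no libraries of different genotypes together. In the shallowest CD45+ library 3 counts correspond to 0.163 CPM, and since counts came in clumps a count of 0 can allow a higher level.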

Other observations

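Outside the V and C genes, other segments of the same loci also drew counts in the 12 CD45+ libraries. The 70 J genes drew 6213 counts, with 54 of them counted and Trgj4, a gamma J gene, highest at 726 counts in 8 libraries. The D genes drew 3211 counts, of which 1783 were on Trbd1 in 10 libraries, and 5 of 34 V pseudogenes drew 274 counts, 209 of them on Trbv24 in 4 libraries. In the 12 CD45- libraries the J genes drew 12 counts and the D genes and V pseudogenes 0.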
